A study of Mus musculus with 3 samples.

Results

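The hemoglobin-rich barcodes were the 504 of 9103 cell barcodes in the day 7 library in which more than 5% of the unique molecular identifiers (UMIs, each standing for 1 captured RNA molecule) came from genes whose symbol starts with Hba- or Hbb-. They were 5.54% of that library (95% Clopper-Pearson interval 5.08% to 6.03%), which was 1 of 3 droplet libraries with 30888 barcodes in all, made 7, 10, and 14 days after fracture. The cells came from the callus of broken femurs of C57BL/6 mice that received no treatment, and the age of these mice was not given in the sources used here. The calluses were cleaned of bone marrow and digested with collagenase, and living cells without CD45, CD31, or TER119 on their surface were sorted, so the gate was meant to remove blood cells, endothelial cells, and erythroid cells. The labels call the sorted cells callus mesenchymal cells. Each day had 1 library and no replicate, so no p-value is given, and every interval covers counting error only.

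Red blood cells arise from progenitors that pass through erythroblast stages, in which the transcription factors GATA1 and KLF1 turn on the genes of hemoglobin, heme synthesis, and the red cell membrane. The nucleus is then expelled and the reticulocyte that remains keeps a shrinking pool of RNA, most of it globin mRNA. The antibody TER119 binds the surface of erythroblasts, reticulocytes, and red cells, but less or not at all on the earliest erythroid progenitors.

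Adult mouse hemoglobin is built from alpha chains of *Hba-a1* and *Hba-a2* and beta chains of *Hbb-bs* and *Hbb-bt*, and its heme from a pathway that starts with *Alas2*, the erythroid 5-aminolevulinate synthase. The 250 bases before the RefSeq start of each of these 5 genes are shown (build GRCm38.p6, strand of the gene), since the members were chosen or recognized by these transcripts. Capitals mark AGATAA or TGATAA, which hold the core that GATA factors bind, and CACCC, the core that KLF1 binds, on either strand. The windows lie at chr11:32283422-32283671 on the plus strand for *Hba-a1*, chr11:32296242-32296491 on the plus strand for *Hba-a2*, chr7:103827929-103828178 on the minus strand for *Hbb-bs*, chr7:103813924-103814173 on the minus strand for *Hbb-bt*, and chrX:150547167-150547416 on the plus strand for *Alas2*.
Hba-a1: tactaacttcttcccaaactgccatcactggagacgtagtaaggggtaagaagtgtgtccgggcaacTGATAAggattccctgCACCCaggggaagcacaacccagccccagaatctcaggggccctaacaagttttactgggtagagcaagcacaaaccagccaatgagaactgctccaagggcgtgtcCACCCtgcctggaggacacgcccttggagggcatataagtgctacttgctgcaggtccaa
Hba-a2: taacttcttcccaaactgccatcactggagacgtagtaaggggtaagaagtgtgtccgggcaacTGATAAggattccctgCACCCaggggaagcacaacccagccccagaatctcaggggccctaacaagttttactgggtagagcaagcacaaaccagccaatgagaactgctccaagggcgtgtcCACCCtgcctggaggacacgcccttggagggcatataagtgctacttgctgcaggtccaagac
Hbb-bs: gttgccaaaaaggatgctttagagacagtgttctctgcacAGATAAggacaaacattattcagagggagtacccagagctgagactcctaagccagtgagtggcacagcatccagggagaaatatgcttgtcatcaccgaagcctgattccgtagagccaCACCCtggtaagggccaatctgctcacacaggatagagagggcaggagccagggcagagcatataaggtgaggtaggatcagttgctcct
Hbb-bt: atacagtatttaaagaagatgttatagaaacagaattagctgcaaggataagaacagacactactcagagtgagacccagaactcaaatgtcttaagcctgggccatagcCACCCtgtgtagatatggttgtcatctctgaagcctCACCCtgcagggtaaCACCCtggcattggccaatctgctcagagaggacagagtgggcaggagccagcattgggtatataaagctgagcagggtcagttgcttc
Alas2: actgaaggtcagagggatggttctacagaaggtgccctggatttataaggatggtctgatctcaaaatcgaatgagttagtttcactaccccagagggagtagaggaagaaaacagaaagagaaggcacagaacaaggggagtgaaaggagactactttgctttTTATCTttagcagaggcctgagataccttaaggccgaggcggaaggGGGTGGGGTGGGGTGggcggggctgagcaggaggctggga
The GENCODE annotation of the same build places the 5′ ends of these genes inside the windows, at 32283511 for *Hba-a1*, 32296489 for *Hba-a2*, 103828096 for *Hbb-bs*, 103813996 for *Hbb-bt*, and 150547375 for *Alas2*, so part of each window, and most of it for *Hba-a1* and *Hbb-bs*, is transcribed by that annotation. The windows of *Hba-a1* and *Hba-a2* shared 1 unbroken run of 247 of their 250 bases, whereas the longest run shared by *Hbb-bs* and *Hbb-bt* was 14 bases. Of 27025 mouse promoter windows of this length, 17.0% held AGATAA or TGATAA and 51.3% held CACCC. Among 73 genes on the erythroid lists, 49 had a window, and 17 of these (34.7%) held the first motif and 33 (67.3%) the second. A match describes the letters in the window and is not a measured binding site.

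The day 7 library held 113127788 UMIs, with medians of 5885 UMIs and 1514 genes per barcode. Hemoglobin genes gave 4043663 UMIs, 3.57% of the library, and the 504 members held 99.0% of them. The other 8599 barcodes had a median of 3 and at most 938 hemoglobin UMIs, and 91.0% of them had at least 1. Of the members, 134 had 500 or more genes and 370 had fewer, whereas 294 of the other barcodes had fewer than 500. The same limit found 9 of 8801 barcodes on day 10 and 7 of 12984 on day 14. Days 7 and 10 shared 29 barcode sequences (2 of them members), days 7 and 14 shared 42 (1 member), and no shared sequence was a member on both days. The doublet caller Scrublet marked 4 of 9103 barcodes, 0.0439%, and is therefore taken not to have worked here.

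The hemoglobin values chose the members and are given only as a description. Among members with under 500 genes, hemoglobin took 8.07% of the UMIs at the lowest, 94.9% at the median, and 98.1% at the highest. They held 46 to 19036 hemoglobin UMIs (median 9486.5) and only 56 to 1468 other UMIs (median 444). Members with 500 or more genes ran from 5.03% through a median of 54.9% to 91.5%, with 90 to 17257 hemoglobin UMIs (median 7264) and a median of 3454.5 other UMIs. Their hemoglobin counts thus overlapped over most of the range. The limit of 500 genes made the 2 sets, so a difference in other RNA was built in and is no result. Hemoglobin lay above 90% in 303 members, of which 4 had 500 or more genes, and between 5% and 10% in 11 members, of which 9 did. The 4 members nearest the limit had 5.03%, 5.03%, 6.16%, and 6.97%, and the 4 nearest barcodes outside it had 4.71%, 4.64%, 4.47%, and 4.25%.

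**Figure D1:**
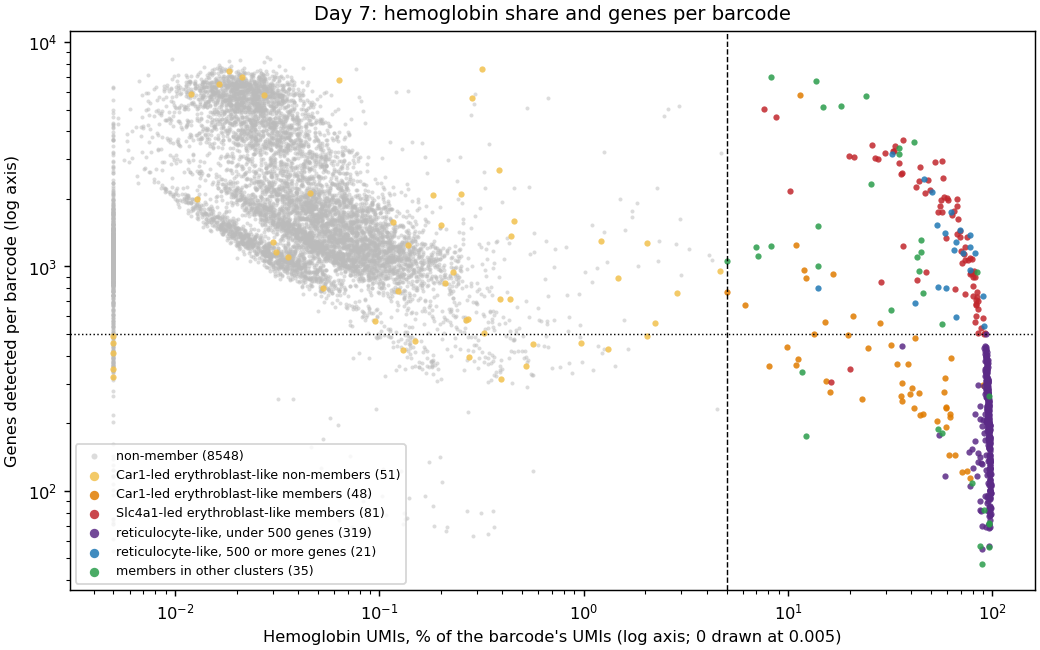
Genes detected per barcode (vertical log axis) against the percent of its UMIs from hemoglobin genes (horizontal log axis, 0 drawn at the left edge) for the day 7 library, with each point 1 barcode colored by group and lines at 5% hemoglobin and 500 genes. The 370 members with under 500 genes gather at a median of 94.9% hemoglobin, and the 134 with 500 or more genes spread from 5.03% to 91.5%.

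The markers proposed for these barcodes were present beyond hemoglobin itself. At least 1 UMI of a fixed list of erythroid genes, counted without globins, was found in 495 of the 504 members (98.2%) and in 32.8% of the other barcodes. Levels below are UMI counts per 1000000 non-hemoglobin UMIs (CPM), with the UMIs of a set of barcodes summed, so that the mass of globin RNA does not push every other gene down. Members with 500 or more genes were compared with the 8305 other barcodes of 500 or more genes. *Alas2* stood at 1902 CPM (exact Poisson interval 1816 to 1990) in members against 0.789 CPM (0.630 to 0.976), a log2 ratio of 11.23 (exact binomial interval 10.92 to 11.57). *Car2*, carbonic anhydrase II, stood at 4188 CPM (4061 to 4319) against 25.3 CPM (24.4 to 26.3).

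Across 15321 genes with at least 20 UMIs in that comparison, 1989 (13%) were at least 2-fold higher in members and 5510 (36%) at least 2-fold lower. The whole counting interval lay past 2-fold for 1033 (6.74%) and 270 (1.76%). The erythroid lists stood far above this background. All 8 genes of heme synthesis, all 15 of the red cell membrane and its skeleton, all 10 of early erythroblasts, and 17 of 18 of terminal erythroblasts and reticulocytes were higher by 2-fold, with their whole intervals past it. The other gene of the terminal list, *Alox15*, had no UMI in members. Median log2 ratios, with genes at 0 set at a 3-count floor, were 5.47, 8.67, 7.65, and 5.204 for these lists against −0.02 over all genes. Of the 15321 genes, 2888 had 0 UMIs in members and were counted among the 5510 lower genes, without the floor. In the medians, the floor set these above their counts and so raised the value of −0.02 over all genes. Low genes could pass the filter only through the set in which they were high, so the counts and medians describe the lists and support nothing further.

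The highest log2 ratios were those of *Slfn14* (12.08), *Gm33111* (12.04), and *Apol11b* (11.94). *Slc4a1*, the band 3 anion exchanger, stood at 2325 CPM against 0.854 CPM (log2 ratio 11.41, interval 11.11 to 11.73). *Epb42*, the band 4.2 protein that links band 3 to the skeleton, stood at 338 CPM against 0.195 CPM (10.76, 10.12 to 11.47). *Alas2* was also among them, as were *Trim10* (11.17) and the minor alpha-like globin gene *Hbq1b* (10.79), which the rule did not count. Others were *Sowaha*, *Mageb16*, *Gm867*, *Fn3k*, and *Gm20161*.

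Most but not all regulators were high. Of the 12 genes of the list of progenitor and transcription factors, 8 were higher by 2-fold in members with 500 or more genes. *Klf1* stood at 372 CPM against 1.81 CPM (log2 ratio 7.68, interval 7.43 to 7.94), *Gata1* had a ratio of 6.52 (6.18 to 6.86), and *Epor*, the erythropoietin receptor, 7.74 (7.33 to 8.16). *Myb*, a regulator of early progenitors, was at 63.6 CPM in members and 153 CPM in the rest (−1.27, −1.65 to −0.91). *Kit*, the stem cell factor receptor of early progenitors, was at 18.5 CPM and 29.6 CPM (−0.68, −1.44 to −0.02), *Ldb1* had a ratio of 0.51 (0.03 to 0.96), and *Gata2* had 3 UMIs in members. The transferrin receptor *Tfrc*, which takes up iron, had a ratio of 4.82 (4.72 to 4.92). Of 10 S phase genes 8, and of 10 G2 and M phase genes 9, were higher by 2-fold. *Mki67*, a marker of cycling cells, stood at 2203 CPM against 315 CPM.

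Members with under 500 genes were set against the 294 other barcodes with under 500 genes. Of 2101 genes with at least 20 UMIs, 383 (18.2%) were higher by 2-fold and 958 (45.6%) lower. All 15 measured genes of the terminal list, all 11 of the membrane list, and all 6 of heme synthesis were higher, with median log2 ratios of 7.81, 4.84, and 4.50 against −0.81 over all genes. Genes could pass the filter through the members alone here too, so these counts and medians describe the lists and support nothing further. *Alas2* had 4320 UMIs in members, 24322 CPM (23602 to 25059), and 1 UMI in the rest. *Bpgm*, which makes the 2,3-bisphosphoglycerate that lowers the oxygen affinity of hemoglobin, had 3718 UMIs against 1, *Tent5c* 2632 against 1, and *Ube2l6* 2585 against 5. *Fech*, the last enzyme of heme synthesis, had 1055 UMIs against 1. *Fam210b* had 228 UMIs against none, at least 101-fold higher by a floor of 3 counts in the rest, and *Tspo2* had 184 against none, at least 81.7-fold higher. *Klf1*, *Epor*, and *Gata1* were among the 8 genes of the list of progenitor and transcription factors that did not reach 20 UMIs in this comparison.

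The genes most reduced in members with under 500 genes were largely mitochondrial. *mt-Cytb* was at 754 CPM (632 to 894) against 32653 CPM (log2 ratio −5.44, interval −5.69 to −5.19), and *mt-Nd4* had a ratio of −5.37 (−5.69 to −5.07). Mitochondrial transcripts made up 1.42% of the non-hemoglobin UMIs of these members and 29.8% of those of the other barcodes with under 500 genes. The comparison barcodes were thus rich in mitochondrial RNA. Without barcodes over 10% mitochondrial UMIs, 316 genes were higher and 1061 lower by 2-fold, against 383 and 958 with them. The log2 ratios of *Car2* (6.21 to 5.54), *Mkrn1* (8.03 to 7.42), and *S100a8* (−1.54 to −2.16) then moved beyond their counting intervals. *Alas2* went from 12.49 to 11.82, inside its interval. Ratios of the mitochondrial genes are not given for this setting. *Ptprc*, which encodes CD45, was at 50.7 CPM against 583 CPM (−3.53, −4.68 to −2.56).

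Neutrophil RNA was present in every set. All 12 mature neutrophil genes had UMIs in members with 500 or more genes, with a summed level of 72777 CPM against 130326 CPM in the rest, and 0 of the 12 were higher by 2-fold. A few barcodes carried most of this sum, since 21 reticulocyte-like members and 23 members of other clusters held 24531 and 37133 of the 70952 UMIs. The list took a median of 0.906% of the non-hemoglobin UMIs of a member with 500 or more genes, against 26.7% in the rest. In members with under 500 genes, 10 of the 12 had UMIs and the sum was 25150 CPM against 76026 CPM. *S100a8*, the most abundant of them, was at 30810 CPM and 10934 CPM in the 2 sets of members. All 12 genes of the B lineage list were lower by 2-fold in members with 500 or more genes, and so were all 8 osteoblast genes, beside 36% of all genes. The whole interval lay past 2-fold for 8 of the 12 and 4 of the 8, beside 1.76% of all genes. In each list 1 gene had 0 UMIs in members. The bone matrix gene *Ibsp* stood at 75.9 CPM against 4707 CPM.

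Clustering of the whole library placed 469 members in 3 erythroid-like clusters. Since the clusters were built from these genes, their levels describe the clusters and test nothing. *Alas2*, *Bpgm*, *Tent5c*, *Ube2l6*, and *Mkrn1* were among the leading genes of the first, called reticulocyte-like here. All of its 340 barcodes were members, 319 with under 500 genes (63.3% of members, 58.9% to 67.5%) and 21 with more (4.17%, 2.60% to 6.299%). The second, led by *Slc4a1*, *Hemgn*, and *Car2*, matched the early erythroblast list best and held 81 members (16.1%, 12.97% to 19.6%) among 82 barcodes. The match does not fix its stage, since the terminal list summed to 35990 CPM in these members and the early list to 22376 CPM. The third, led by *Car1*, *Car2*, *Ermap*, *Blvrb*, and *Klf1*, also matched the early erythroblast list best. It held 48 members (9.52%, 7.11% to 12.4%) and 51 barcodes under the limit. The remaining 35 members (6.94%, 4.88% to 9.53%) lay in 13 clusters of other kinds.

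The 3 groups differed in RNA content. Reticulocyte-like barcodes with under 500 genes had medians of 10205 hemoglobin UMIs, 461 other UMIs, and 205 genes. The *Slc4a1*-led members had 8215, 3830, and 1354. In the *Car1*-led group, 1 barcode held 53.1% of all non-hemoglobin UMIs, so values are given for the 47 other members, which had medians of 296 hemoglobin UMIs, 450 other UMIs, and 303 genes. Ribosomal protein genes made up 6.39% of non-hemoglobin UMIs in the reticulocyte-like barcodes with under 500 genes, 15.03% in the *Slc4a1*-led members, and 27.9% in the *Car1*-led members.

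The *Slc4a1*-led members were set against the reticulocyte-like barcodes by stage genes. Of 3488 genes compared with the reticulocyte-like barcodes of under 500 genes, 69.6% were higher by 2-fold and 7.48% lower. *Klf1* had a median of 2 and at most 14 UMIs per barcode in the *Slc4a1*-led members, and 4 UMIs in all in 319 reticulocyte-like barcodes (692 CPM and 25.3 CPM). *Hemgn*, an erythroid nuclear protein, had a median of 10 UMIs against 0 (2369 CPM and 114 CPM, log2 ratio 4.38, interval 3.71 to 5.14). *Tfrc* had a median of 10 against 0 (3.46, 2.94 to 4.04). *Mki67* had a median of 14 against 0 (4.22, 3.73 to 4.77), and *Pcna* of the S phase list had a ratio of 4.24 (3.25 to 5.46). *Epor* had 142 UMIs in the *Slc4a1*-led members and 0 in the 319 reticulocyte-like barcodes. All 10 S phase genes, 8 of 9 progenitor and transcription factor genes, and 8 of 10 G2 and M phase genes were higher by 2-fold, and the last share is near that over all genes. Their median log2 ratios were 4.41, 3.74, and 3.998 against 1.65 over all genes. *Ube2c* (−0.33, −0.49 to −0.16) and *Nusap1* (−0.34, −0.60 to −0.07) were the exceptions.

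The order of terminal genes depended on the scale. In CPM, 9 of 16 terminal genes were lower by 2-fold in the *Slc4a1*-led members and 2 were higher. *Alas2* was at 2595 CPM (2456 to 2740) there and at 27032 CPM (26227 to 27855) in the reticulocyte-like barcodes of under 500 genes. Counted per barcode, however, *Alas2* ran from 0 to 35 UMIs with a median of 16 in the *Slc4a1*-led members and from 0 to 35 with a median of 13 in the reticulocyte-like barcodes, so the groups overlapped fully. *Mkrn1*, a ubiquitin ligase, had medians of 8 and 13 (1798 CPM and 27044 CPM). *Bpgm* was the one of these that also stood apart per barcode, with medians of 1 and 11 UMIs (871 CPM and 23445 CPM). For *Alas2* the groups thus differed in CPM and hardly in UMIs per barcode, beside median totals of 3830 and 461 non-hemoglobin UMIs. *Slc4a1* showed the opposite, at 4210 CPM and 4080 CPM (log2 ratio 0.05, −0.08 to 0.17) but at medians of 25 and 1 UMIs per barcode. *Car2* had medians of 44 and 1.

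**Figure D2:**
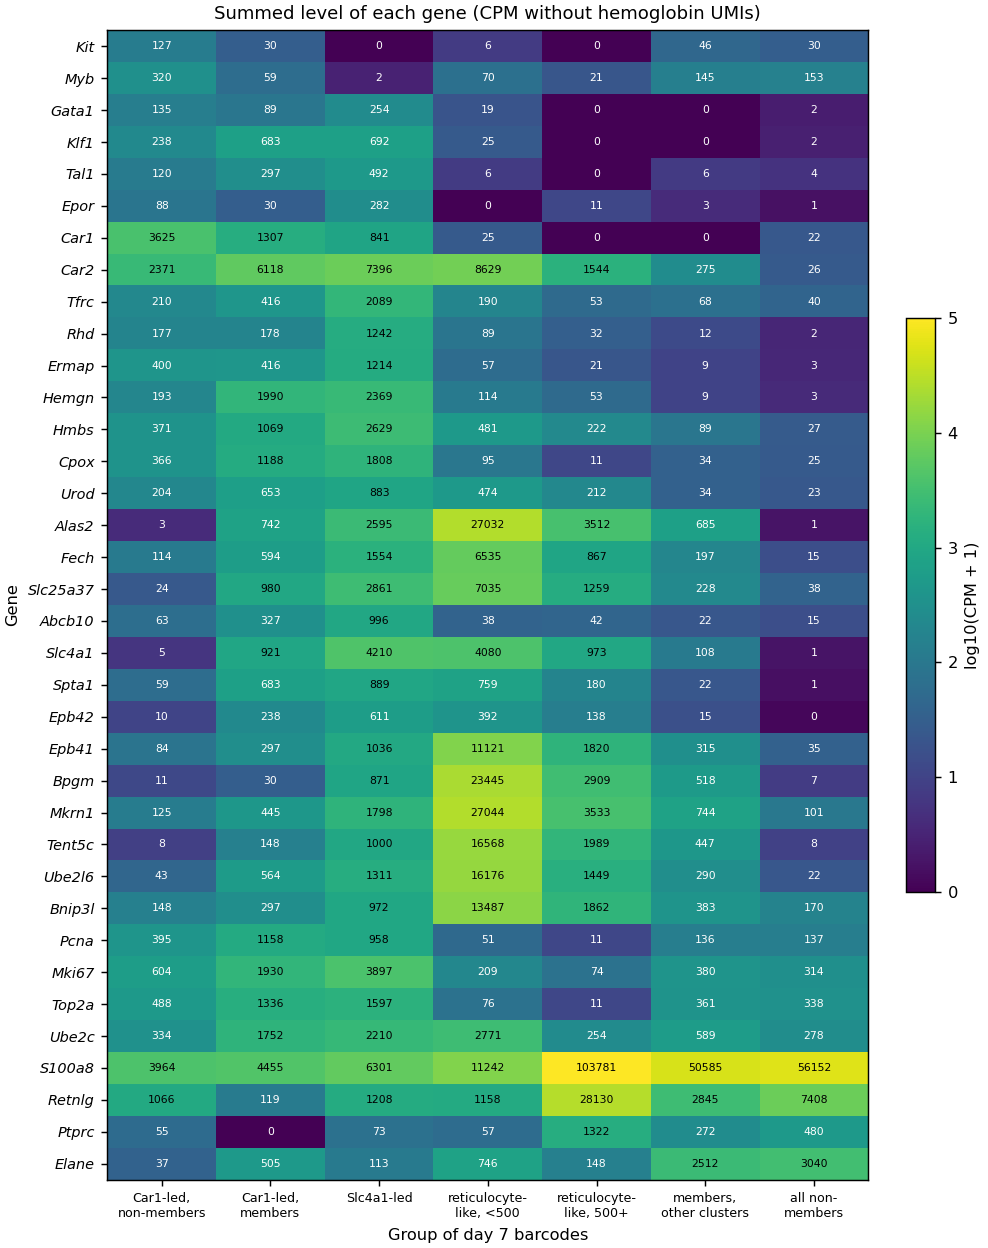
Summed level of stage, cell cycle, and neutrophil genes (one line per gene, CPM printed in each cell, color on a log10 scale of CPM plus 1) in groups of day 7 barcodes (columns), with the deepest *Car1*-led member left out. *Klf1* was at 692 CPM in the *Slc4a1*-led members and 25.3 CPM in the reticulocyte-like barcodes of under 500 genes, and *Bpgm* at 871 CPM and 23445 CPM.

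With each barcode thinned to 300 non-hemoglobin UMIs, *Alas2* was seen in 99.5% (97.47% to 99.99%) of 218 reticulocyte-like barcodes of under 500 genes, in 70.4% (59.2% to 80.0%) of 81 *Slc4a1*-led members, and in 21.6% (9.83% to 38.2%) of 37 *Car1*-led members. The barcodes too shallow to thin numbered 101, 0, and 10. Before thinning the shares were 98.7%, 97.5%, and 36.2%. Among all 8599 other barcodes, with a median of 5701 non-hemoglobin UMIs, *Alas2* was seen in 0.814% before and 0.0465% after thinning, and the 3 groups lay above both. *Mki67* was seen in 5.50% (2.88% to 9.42%), 49.4% (38.1% to 60.7%), and 29.7% (15.9% to 47.0%) of the 3 groups and in 4.02% of the other barcodes.

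The *Car1*-led members had low levels of membrane and terminal genes. Of 3335 genes compared with the *Slc4a1*-led members, 10.9% were higher by 2-fold and 33.3% lower, and 10 of 15 membrane genes and 12 of 15 terminal genes were lower. Genes could pass the filter through the *Slc4a1*-led members alone, which held 504025 non-hemoglobin UMIs against 33673, so these counts only describe the groups. *Slc4a1* had 31 UMIs in 13 of the 47 barcodes (log2 ratio −2.19, −2.75 to −1.68), and *Tfrc* had 14 UMIs in 10 (−2.33, −3.21 to −1.58). *Bpgm* had 1 UMI in all, and *Alas2* had 25 UMIs in 17 barcodes (742 CPM, 480 to 1096). *Klf1* was at 683 CPM (433 to 1025) against 692 CPM (622 to 769), a log2 ratio of −0.02 (−0.70 to 0.59), so no difference was detectable at this depth. *Car1*, an early erythroid carbonic anhydrase, was at 1307 CPM (949 to 1754) against 841 CPM (763 to 925), and *Mki67* at 1930 CPM (1490 to 2460) against 3897 CPM (3726 to 4073).

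Alpha and beta globin genes shifted in their proportions between the groups. *Hba-a2* and *Hba-a1* had 2073 and 5530 UMIs in the *Car1*-led members, a ratio of 0.375 (0.356 to 0.394). The ratio was 0.532 (0.528 to 0.536) in the *Slc4a1*-led members and 0.717 (0.715 to 0.720) in the reticulocyte-like barcodes of under 500 genes. Among barcodes with at least 100 UMIs of the pair, the medians were 0.329 of 31 barcodes, 0.529 of 79, and 0.720 of 319, with ranges of 0.159 to 0.670, 0.190 to 0.917, and 0.529 to 1.06, so single barcodes of neighboring groups overlapped. *Hbb-bt* over *Hbb-bs* was 0.283 (0.270 to 0.295) in the *Car1*-led and 0.278 (0.276 to 0.281) in the *Slc4a1*-led members. It was 0.211 (0.211 to 0.212) in the reticulocyte-like barcodes of under 500 genes. Among barcodes with at least 100 UMIs of this pair, the medians were 0.347 of 36 barcodes, 0.291 of 80, and 0.210 of 319. Their ranges were 0.116 to 1.09, 0.113 to 0.923, and 0.0104 to 0.400, so single barcodes overlapped between the groups. Total alpha over beta was 0.641, 0.739, and 0.747 in the same order. The coding copies of each pair are nearly identical, so how reads were divided between them is uncertain, and that part was not tested.

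**Figure D3:**
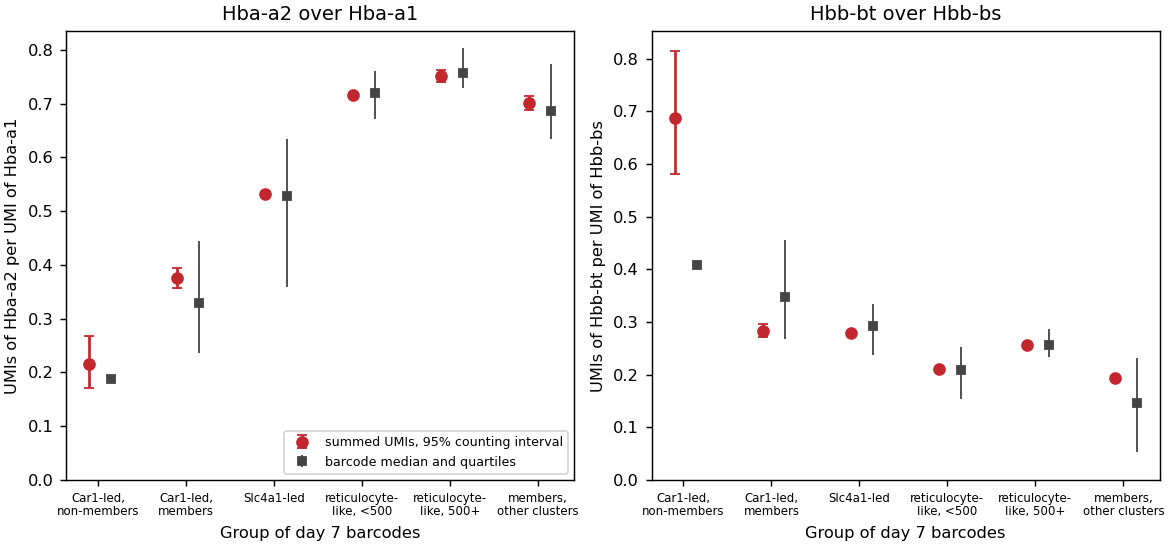
Ratios of UMIs of *Hba-a2* over *Hba-a1* and of *Hbb-bt* over *Hbb-bs* (vertical axis) by group of day 7 barcodes, as summed UMIs with exact 95% intervals (circles) and as the median and quartiles of barcodes with at least 100 UMIs of the pair (squares). The *Hba-a2* ratio was 0.375 in *Car1*-led members, 0.532 in *Slc4a1*-led members, and 0.717 in reticulocyte-like barcodes of under 500 genes. The barcode median of the *Car1*-led barcodes under the limit rests on 1 barcode.

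Globins of the embryo were almost absent. *Hbb-y* had 2 UMIs and *Hba-x* 1 UMI in all members, and *Hbb-bh1* and *Hbb-bh2* had 0. Of hemoglobin UMIs, *Hbb-bs* gave 45.4% in members with 500 or more genes and 47.3% in those with fewer. *Hbq1a* had 71 UMIs in the reticulocyte-like barcodes of under 500 genes and 3 in the *Slc4a1*-led members, whereas *Hbq1b* had 98 and 99.

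Added hemoglobin in cells of other lineages was looked for next. The 21 reticulocyte-like barcodes with 500 or more genes carried a neutrophil profile beside the erythroid one. The mature and secondary granule neutrophil lists took 29.8% of their non-hemoglobin UMIs (3.21% to 43.3% per barcode, median 30.5%), against 3.42% in the reticulocyte-like barcodes of under 500 genes, 1.89% in the *Slc4a1*-led members, and 32.6% in barcodes of the mature-neutrophil-like clusters under the limit. All 12 mature neutrophil genes and all 10 secondary granule genes had UMIs. *Ptprc* was found in 20 of the 21, at 1322 CPM (1101 to 1576), and in 9 of the 319, at 56.9 CPM (26.0 to 108). *S100a8* had 19 to 1431 UMIs per barcode (median 303) in the 21 and 0 to 93 (median 5) in the 319. Of 1231 genes compared between these 2 sets, 44.1% were higher and 32.5% lower by 2-fold in the 21. *Mmp8* (log2 ratio 4.53, 3.90 to 5.22) and *Retnlg* (4.60, 4.39 to 4.83) were higher. *Alas2* had a median of 18 UMIs per barcode in the 21 and 13 in the 319. The 4 barcodes marked by Scrublet were all among the 21. Whether these barcodes held more than 1 cell was not tested.

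**Figure D4:**
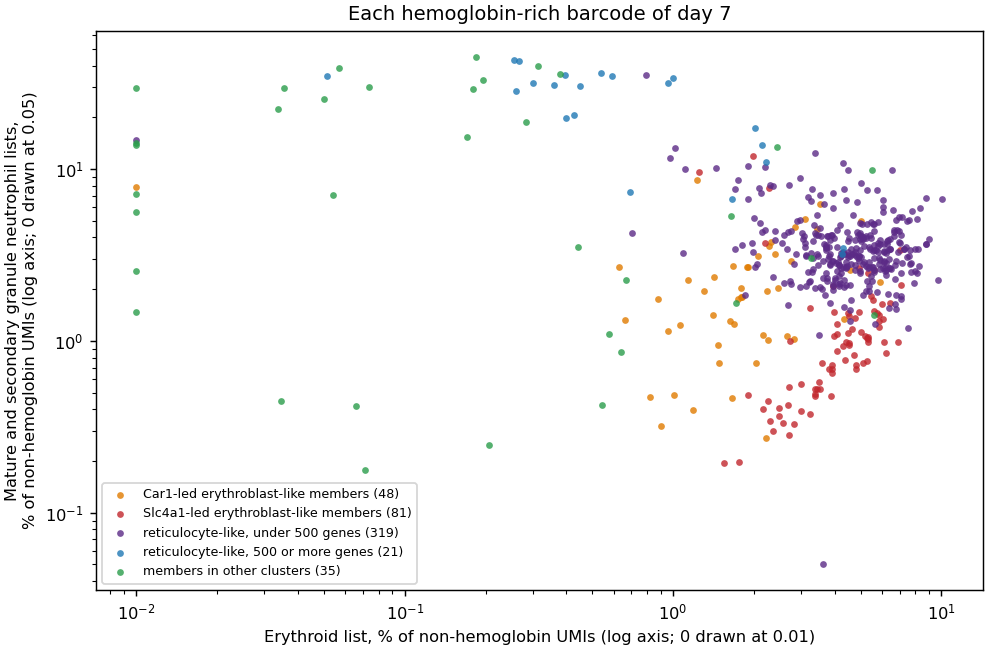
Percent of non-hemoglobin UMIs from the mature and secondary granule neutrophil lists (vertical log axis) against the percent from the erythroid list (horizontal log axis), with each point 1 member colored by group and 0 drawn at the edge. The 21 reticulocyte-like barcodes with 500 or more genes run from 3.21% to 43.3% neutrophil UMIs, and the 319 with fewer genes have a median of 3.31%.

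The 35 members in other clusters were spread widely. Mature-neutrophil-like clusters held 8, clusters led by secondary granule neutrophil genes 8, clusters led by primary granule precursor genes 2, a cluster led by the basophil genes *Prss34* and *Mcpt8* 6, a stromal-like cluster 4, a chondrocyte-like cluster 1, and a cluster led by *Igha*, *Jchain*, and *C1qa* 4. The last 2 lay in a cluster led by *Apoe*, *Ctss*, and *Ccr2* and in a cluster led by mitochondrial genes, 1 each. They held 59 to 16632 hemoglobin UMIs, whereas the other barcodes of the same clusters had medians between 1 and 9. The 6 members in the *Prss34*-led cluster all had under 500 genes. They had a median of 90 non-hemoglobin UMIs, against 1910 in its other barcodes, so their placement rests on little RNA. The osteoblast genes *Bglap* and *Bglap2* were also among the leading genes of that cluster. At least 1 UMI of the erythroid list was found in 28 of the 35 (80.0%).

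Erythroid genes other than hemoglobin were also higher in these members, without *Klf1* or *Car1*. The 23 of these members with 500 or more genes were compared with 7336 other barcodes of the same clusters, in which 10.0% of 14927 genes were higher and 30.2% lower by 2-fold in members. Of 16 terminal genes 12 were higher. *Alas2* had a log2 ratio of 9.80 (9.39 to 10.21), *Bpgm* 6.28 (6.02 to 6.53), and *Slc4a1* 7.33 (6.70 to 7.94). Over all 35, *Klf1* and *Car1* had 0 UMIs, which allows up to 9.26 CPM, whereas *Mki67* had 123 UMIs in 8 barcodes. The neutrophil lists took 16.6% of the summed non-hemoglobin UMIs of the 23 and 17.9% in the other barcodes of those clusters, and the medians per barcode were 18.9% and 33.1%.

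The same genes were also set against hemoglobin itself. Hemoglobin UMIs chose the members and the groups were clustered on these genes, so the values only describe the groups. Per 10000 hemoglobin UMIs, *Alas2* had 14.1 (13.7 to 14.5) UMIs in the reticulocyte-like barcodes of under 500 genes, 18.5 (16.5 to 20.6) in those of 500 or more, 19.4 (17.0 to 22.2) in the 35 members of other clusters, and 19.9 (18.9 to 21.0) in the *Slc4a1*-led members. *Bpgm* had 12.2, 15.3, 14.7, and 6.69 in the same order. *Car2* had 4.51, 8.12, 7.79, and 56.8, and *Slc4a1* had 2.13, 5.12, 3.06, and 32.3. *Hemgn* had 0.0595, 0.278, 0.263, and 18.2. *Mkrn1* had 14.1, 18.6, 21.1, and 13.8. *Mki67* was at 10.8 (8.95 to 12.8) in the 35, 0.109 in the reticulocyte-like barcodes of under 500 genes and 29.9 in the *Slc4a1*-led members. It was also seen in 24.1% of the other barcodes with 500 or more genes of the clusters that held the 35. The source of the *Mki67* UMIs in the 35 was not tested. The *Hba-a2* over *Hba-a1* ratio of the 35 was 0.702 (0.689 to 0.715), beside 0.717 in the reticulocyte-like barcodes of under 500 genes and 0.751 (0.741 to 0.762) in those with more. Free hemoglobin RNA and RNA from a second cell cannot be told apart from these counts.

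**Figure D5:**
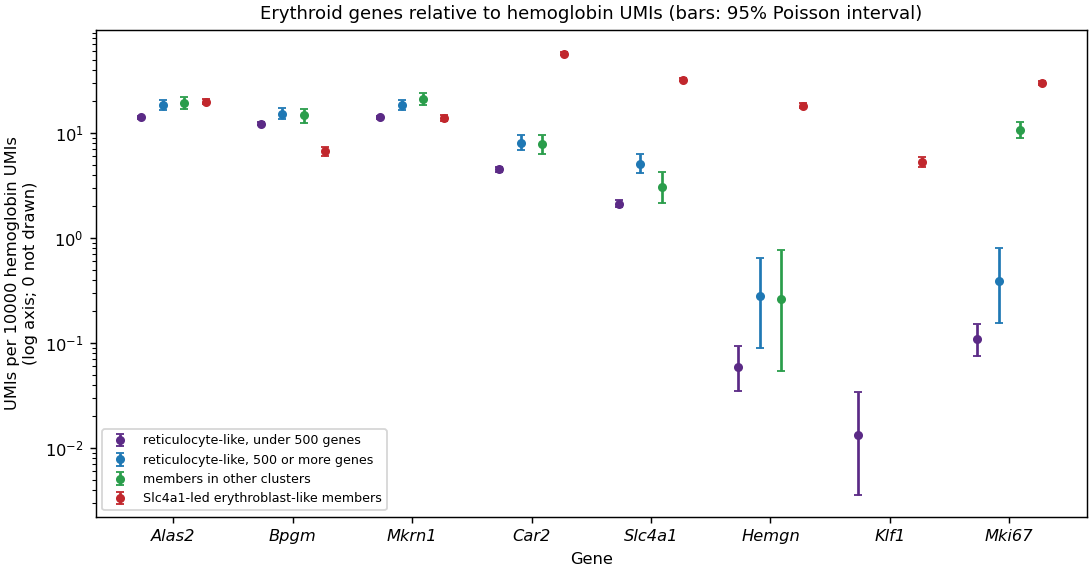
UMIs of 8 genes per 10000 hemoglobin UMIs (vertical log axis, 0 not drawn) in 4 groups of members, with exact Poisson intervals as bars. *Hemgn* was at 18.2 in the *Slc4a1*-led members and between 0.0595 and 0.278 in the other 3 groups, and *Alas2* lay between 14.1 and 19.9 in all 4.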

How the data were processed

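The members, gene lists, and comparisons were chosen with earlier results of these data known. Per the labels and the file headers, the authors aligned droplet reads (mm10; Cell Ranger 3.0 in the submitters' processing notes, 3.1.0 in the matrix header) and deposited whole UMI counts per gene and barcode without normalization. Sources differ on the kit version. All deposited barcodes were used. Clusters were made in Python 3.11.15 with scanpy 1.11.5 (2000 variable genes, 30 principal components, 15 neighbors, Leiden resolution 1). UMIs were summed over barcodes and divided by the non-hemoglobin total. Genes had at least 20 UMIs over both sides. Intervals are exact Poisson, exact conditional binomial, and Clopper-Pearson at 95%. In list medians of the comparisons matched on the gene limit, in folds given as at least, and in CPM floors, a count of 0 was set at 3 counts. In counts of genes past 2-fold it stayed at 0, so such genes were counted as past 2-fold. Ratios were tested on simulated data. Named genes are those of the lists, all globins, the 15 highest and 10 lowest ratios per comparison, and the 10 genes with the largest fold in each cluster holding 10 or more members. *Prss34*, *Mcpt8*, *Igha*, *Jchain*, *C1qa*, *Apoe*, *Ctss*, and *Ccr2* as cluster leaders were chosen after their values were seen, as was the removal of the deepest *Car1*-led barcode. Promoters are from RefSeq. Some genes that the rule names are not reported here. Alternatives covered the limits, the total, the filter, and the clustering.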

Additional observations from a re-analysis of the deposited data

Results flagged for a closer look

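Days 10 and 14 were not part of the comparisons and also held barcodes above the hemoglobin limit. On day 10 there were 9 of 8801 (0.102%, 0.0468% to 0.194%), with 38 to 8259 hemoglobin UMIs (median 510), 159 to 620 genes (median 271), and 0 to 7 *Alas2* UMIs (median 1). On day 14 there were 7 of 12984 (0.0539%, 0.0217% to 0.111%), with 70 to 4896 hemoglobin UMIs (median 1244), 167 to 2296 genes (median 266), and 0 to 5 *Alas2* UMIs (median 2). Among the barcodes under the limit, 2.39% on day 10 and 1.63% on day 14 had a hemoglobin UMI, against 91.0% on day 7. With 1 library per day, a difference between days and one between libraries cannot be told apart.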

How the results depend on the processing

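No paired analysis was possible because each day had 1 library, and no replicate could be left out. The number of members was 523 at a hemoglobin limit of 2%, 493 at 10%, 464 at 25%, and 415 at 50%. The share of members at or above the gene limit was 26.6% at 500 genes, 41.5% at 300, and 16.7% at 1000. For the sets of 500 or more genes (1989 genes higher and 5510 lower), putting all UMIs in the total gave 893 higher and 10233 lower, a filter of 100 UMIs gave 3657 lower, members of the erythroid-like clusters alone gave 8275 lower, and requiring the whole interval past 2-fold gave 1033 and 270. For the sets of under 500 genes (383 and 958), all UMIs in the total gave 88 and 1905, a filter of 5 UMIs 694 and 3344, one of 100 UMIs 170 and 115, and the whole interval 323 lower. With hemoglobin in the total, the log2 ratios of *Tfrc*, *Mki67*, and *Elane* in these sets turned from 2.52, 2.17, and 0.60 to −1.67, −2.01, and −3.59. The erythroid-like clusters held 93.1% of members, and 84.1% with more variable genes in the clustering. Where only barcodes of 500 or more genes were clustered, they held 84.3% of the members with 500 or more genes. The main clusters held 82.8% of those same members. Of 56 settings of the counts and shares behind the comparisons, 39 stayed close and 17 moved. The 17 include the 84.3%, which was judged against the 93.1% of all members. Of 182 settings of single-gene ratios, 97 stayed close, 82 moved beyond the counting interval, and 3 turned, and in the sets of under 500 genes *Slc4a1* went from 8.83 to 5.02 at the 25% limit. Median totals of 450 non-hemoglobin UMIs in the *Car1*-led members and 461 in the reticulocyte-like barcodes of under 500 genes limit what low genes can show.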

Other observations

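The *Car1*-led cluster continued below the hemoglobin limit. Its 51 barcodes under the limit had a median of 5 hemoglobin UMIs (at most 347) and 893 genes, and they held 2257 of the 2419 *Car1* UMIs, 148 of the 195 *Klf1* UMIs, and 55 of the 77 *Epor* UMIs found in all 8599 barcodes under the limit. *Slc4a1* had 3 UMIs and *Alas2* 2 UMIs in the 51. The progenitor genes *Kit* and *Myb* were at 127 CPM and 320 CPM there. Their pooled *Hba-a2* over *Hba-a1* ratio was 0.215 (0.171 to 0.268), below the 0.375 (0.356 to 0.394) of the *Car1*-led members. Their pooled *Hbb-bt* over *Hbb-bs* ratio was 0.688 (0.581 to 0.814). These rest on 1137 hemoglobin UMIs. For each pair only 1 barcode had at least 100 UMIs, with ratios of 0.1875 and 0.408. The median of 5 lay within the medians of 1 to 9 in the other clusters, and the part of free hemoglobin RNA was not tested. No deep barcode was left out here, though 1 held 108661 of 622609 non-hemoglobin UMIs. Ribosomal protein genes made up 31.1% of the non-hemoglobin UMIs of the 51.

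A list of genes of macrophages that take up red cells was compared between members of other clusters with 500 or more genes and the other barcodes of those clusters. Of its 8 genes 7 were measured, and 5 were higher by 2-fold and 0 lower, beside 10.0% of all genes higher. The summed level was 423 CPM against 191 CPM, and members had a median of 3 UMIs of the list. *Timd4* had 0 UMIs in members. *Vcam1* had a log2 ratio of 2.53 (2.08 to 2.94), *Hmox1*, heme oxygenase, 1.51 (0.94 to 2.03), *Cd163*, the receptor for hemoglobin bound to haptoglobin, 3.15 (0.85 to 4.74, 3 UMIs in members), and *Spic*, a factor of red pulp macrophages, 3.33 (1.02 to 4.92, 3 UMIs). Of these members, 4 lay in the cluster led by *Igha*, *Jchain*, and *C1qa*, which held 204 of all barcodes. This same list was the best match of that cluster, and *Vcam1* was among its 10 leading genes (445 CPM against 21.7 CPM elsewhere). The counts of the list therefore cannot be read as a trait of the members. The mix of clusters differed between the 2 sides, and its part in these ratios was not tested.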
